A study of Drosophila melanogaster with 6 samples.

Results

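The genes described are those of the ecdysone receptor, its early regulators, further nuclear receptors that act in the ecdysone cascade and the secreted protein ImpL2. They were chosen by gene symbol, 10 genes in all, and 8 of them had a probe set named for 1 gene, giving 12 probe sets. Eip74EF, a transcription factor with an ETS domain, and Eip75B, a nuclear receptor that binds haem, had none named here and were not analysed. RNA came from Kc-167 cells, a line of Drosophila melanogaster derived from embryos that carries features of blood cells. All cells received double-stranded RNA, 20 µg for 1 hour in medium without serum before serum was added, and were harvested on day 5. In the control group this RNA matched the bacterial gene for beta-lactamase, which has no counterpart in flies, and in the other group it matched Enigma (CG9006, current symbol Egm), whose mitochondrial product resembles the acyl-CoA dehydrogenases. Each group held 3 arrays, numbered 1 to 3, and arrays of the same number in both groups are called a pair. The labels name no hormone treatment and no genetic change in either group, and they do not say whether the replicates were separate cultures, so the spread behind the p-values may be technical.

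Ecdysone is the steroid hormone of insects that times moulting and metamorphosis. It binds the product of EcR, a nuclear receptor that works as a heterodimer with the product of usp, the fly relative of the vertebrate retinoid X receptor. The bound receptor activates a small set of early regulators, among them br, Eip74EF and Eip75B, and these in turn act on late genes. Further nuclear receptors, such as Hr4, Hr39, Hr78 and ftz-f1, also act in the cascade. Kc cells are a classical model for this response, because they stop dividing and change shape when the hormone is added.

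Expression is given as GCRMA values in log2 units, a difference is Enigma RNAi minus control RNAi, and 3 arrays per group limit the precision of every value. A probe set was tested where its value was above 4, taken here as the level of detection, on at least 3 of the 6 arrays. Of the 12 probe sets, 7 lay above 4 on all 6 arrays and 5 lay below 4 on all 6, so that usp, br, Hr39, Hr78, ftz-f1 and ImpL2 were tested and EcR and Hr4 were not. None of the 7 tested probe sets passed the threshold of an adjusted p under 0.05 (limma over 6975 probe sets, 0 of 7 called against 0% of all tested). At an unadjusted p under 0.05 there were 0 of 7, where the share of all tested was 4.26%. With the replicate number as a block the count called was also 0 of 7, against 0.631% of all tested, and at an unadjusted p under 0.05 it was 0 of 7 against 19.3%. The differences of the 7 ran from -0.23 for Hr78 to 0.25 for ImpL2, with a median of -0.11, and the median of all tested probe sets was -0.03.

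**Figure D1:**
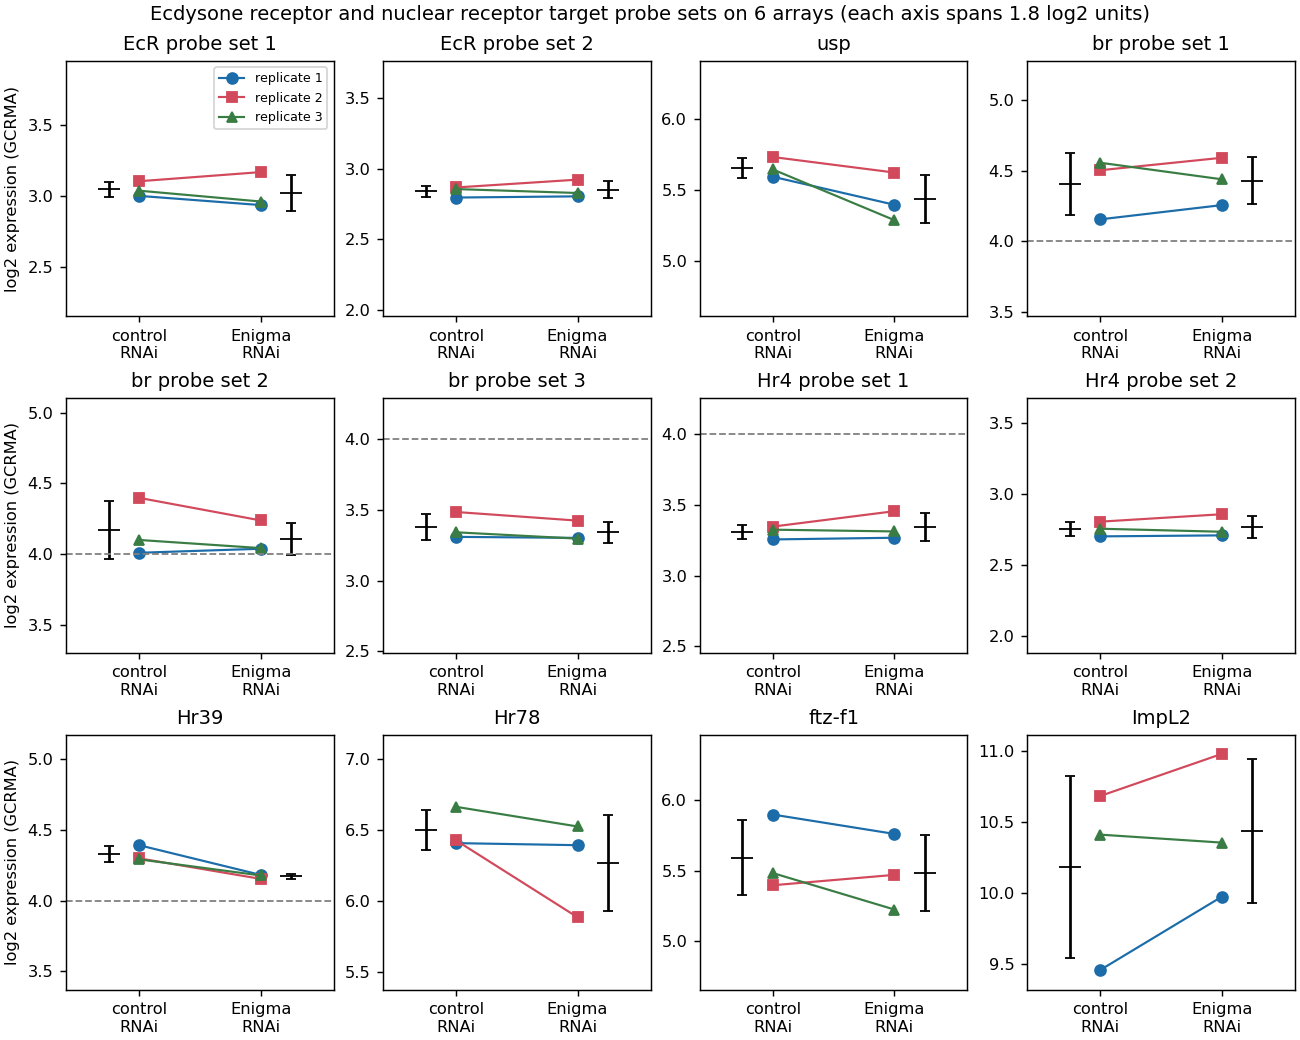
Log2 expression of the 12 probe sets on the 6 arrays, with control RNAi on the left and Enigma RNAi on the right of each panel. Symbols joined by a line are arrays of 1 replicate number, black marks are group means with their SD (n = 3), the dashed line is the detection level of 4, and each vertical axis spans the same length around its own values. The groups lie apart for Hr39, where the control arrays run from 4.29 to 4.39 and the Enigma RNAi arrays from 4.15 to 4.18.

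The RNA interference was visible in its target. The Enigma probe set was at 6.00, 6.41 and 6.71 in control arrays 1 to 3 and at 3.24, 3.51 and 4.21 in the Enigma RNAi arrays. The difference was -2.72, with a standard error of 0.29. Enigma RNAi arrays 1 and 2 lay below the detection level of 4, which limits how exactly its size can be read. The adjusted p from limma was 0.283 without the block and 0.000118 with it. Genes that mark plasmatocytes, the macrophage-like blood cells of the fly, were partly detected: 6 of 10 with a probe set were tested, and 2 were below 4 on all arrays. The mean level of the 10 overlapped between the groups, from 6.07 to 7.03 in controls and from 6.23 to 6.90 after Enigma RNAi. Hml was at 10.59 to 11.48 over the 6 arrays, and NimC1 and crq were below 4 on all of them. The markers of crystal cells, lamellocytes, fat body, neurons and muscle had mean levels between 3.02 and 4.06 on every array. These means hide single detected genes. Of the markers with a probe set, 1 of 4 was tested for crystal cells, 2 of 4 for neurons and 1 of 2 for muscle. For lamellocytes it was 0 of 4 and for fat body 0 of 6. The genes brp and elav (neurons) and lz (crystal cells) were above 4 on all 6 arrays, and Mlc2 (muscle) on 5. In bulk RNA, fewer cells of a type and less RNA per cell cannot be told apart.

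The receptor itself was represented by 1 detected and 1 undetected partner. EcR had 2 probe sets, and the first was at 3.00, 3.10 and 3.04 in control arrays 1 to 3 and at 2.93, 3.17 and 2.96 in the Enigma RNAi arrays. Its groups overlapped in the deposited values, and array 2 was the highest in both of them. After quantile normalization and after cyclic loess the Enigma RNAi values of this probe set lay below all control values, still below the detection level, and over a range of 0.080 in the first case. The second EcR probe set lay between 2.80 and 2.92 over the 6 arrays. EcR is transcribed from several promoters into isoforms that differ at their amino terminus, and the files do not say which part of the transcript a probe set covers, so these values apply to the probed sequences only. No fold is given for EcR, because both groups lay below the detection level.

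The transcript of usp was detected on all arrays. It was at 5.59, 5.73 and 5.65 in control arrays 1 to 3 and at 5.40, 5.62 and 5.29 in the Enigma RNAi arrays. The group means were 5.66 ± 0.07 and 5.44 ± 0.17 (SD, n = 3), and usp was lower after Enigma RNAi in all 3 pairs, by 0.20, 0.11 and 0.36. The highest Enigma RNAi array, number 2, lay above the lowest control array, so the groups overlapped, as they did after quantile normalization, while after cyclic loess they lay apart. The difference was -0.22 ± 0.12 (SE), its 95% interval reached from -0.52 to 0.07, and it did not pass (limma, adjusted p = 0.999, and adjusted p = 0.262 with the block).

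Of the early regulators only br had probe sets. The gene br encodes the Broad transcription factors, which carry a BTB domain and alternative pairs of zinc fingers and are needed for entry into metamorphosis. Its first probe set was at 4.16, 4.50 and 4.56 in control arrays 1 to 3 and at 4.26, 4.59 and 4.44 in the Enigma RNAi arrays. Its second was at 4.01, 4.40 and 4.10 in controls and at 4.04, 4.24 and 4.04 after Enigma RNAi. Both stayed just above the detection level and overlapped between the groups. Their differences were 0.02, with a 95% interval of -0.34 to 0.39, and -0.06, with an interval of -0.39 to 0.27. The third br probe set lay below 4 on every array, between 3.30 and 3.48, so its difference of -0.04 is not read as a fold either. On the first br probe set both arrays numbered 1 were the lowest of their group.

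The other nuclear receptors were Hr4, Hr39, Hr78 and ftz-f1. Hr4, which in the larval prothoracic gland limits ecdysone synthesis, had 2 probe sets, at 3.25 to 3.45 and at 2.70 to 2.86 over the 6 arrays, all below the detection level. Hr39 and ftz-f1 are the fly members of the nuclear receptor subfamily that includes vertebrate steroidogenic factor 1, and ftz-f1 acts as the competence factor that lets tissues answer the prepupal pulse of hormone. Hr78 is an orphan receptor that the larva needs to reach metamorphosis.

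Hr39 was the one tested probe set of the genes described whose groups did not overlap in the deposited values. It was at 4.39, 4.30 and 4.29 in control arrays 1 to 3 and at 4.18, 4.15 and 4.18 in the Enigma RNAi arrays. All 3 control values lay above all 3 Enigma RNAi values, although the gap between the nearest arrays was small and every value was close to the detection level. Non-overlapping groups with the lower values after Enigma RNAi were found for 1 of 7 here and for 6.16% of all tested probe sets. The means were 4.33 ± 0.06 and 4.17 ± 0.02 (SD, n = 3), and the difference of -0.16 had a 95% interval of -0.39 to 0.07 (limma, adjusted p = 0.999, and adjusted p = 0.398 with the block). After quantile normalization or cyclic loess the groups of Hr39 overlapped, so which of usp and Hr39 had groups apart depended on the normalization.

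Hr78 was at 6.41, 6.43 and 6.66 in control arrays 1 to 3 and at 6.39, 5.88 and 6.53 in the Enigma RNAi arrays. Enigma RNAi array 2 was the low one, and the other two lay within the range of the controls or just below it. The difference of -0.23 had a 95% interval of -0.68 to 0.22 (limma, adjusted p = 0.999), and it was -0.04 without Enigma RNAi array 2. The values of ftz-f1 were 5.90, 5.40 and 5.48 in control arrays 1 to 3 and 5.76, 5.47 and 5.22 in the Enigma RNAi arrays. Array 1 was the highest in both groups. Its difference of -0.11 had a 95% interval of -0.57 to 0.35 (limma, adjusted p = 0.999), and its pairs did not share a direction.

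Over the 7 tested probe sets, usp, Hr39 and Hr78 were lower after Enigma RNAi in 3 of 3 pairs, against 25.2% of all tested probe sets, and 0 were higher in 3 of 3 pairs, against 15% of them. A lower mean was found for 5 of 7, against 58.3% of all tested. Signs of RNA quality were mixed. The log2 signal of the eIF4A control transcript at its 3′ end minus that at its 5′ end was higher in each Enigma RNAi array than in the control of its pair. The means were 1.38 ± 0.14 for control RNAi and 1.71 ± 0.22 for Enigma RNAi (SD, n = 3), and the part of RNA quality in these differences was not tested. The same measure differed by 0.17 for actin, higher in all 3 pairs, by 0.073 for Gapdh, lower in pair 1, and by -0.34 for 18S ribosomal RNA, lower in pairs 2 and 3.

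**Figure D2:**
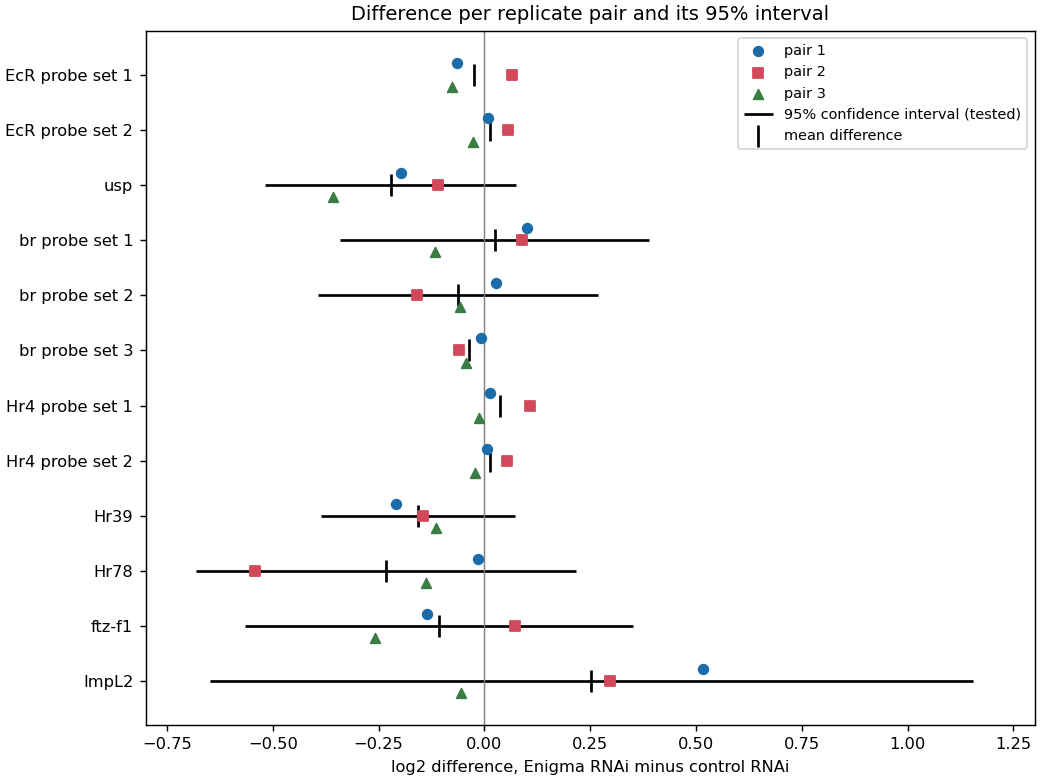
Log2 difference, Enigma RNAi minus control RNAi, of each probe set in each replicate pair (coloured symbols), with the mean (vertical mark) and, for the 7 tested probe sets, the 95% confidence interval from limma without a block (line). Every interval spans 0, and the widest is that of ImpL2, from -0.65 to 1.15.

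ImpL2 encodes a secreted protein with immunoglobulin-like domains, first found as an ecdysone-inducible gene of imaginal discs, that binds insulin-like peptides and dampens insulin signalling. It was at 9.46, 10.68 and 10.41 in control arrays 1 to 3 and at 9.97, 10.98 and 10.36 in the Enigma RNAi arrays. The order of the arrays was the same in both groups, with number 1 the lowest and number 2 the highest, and the groups overlapped. The means of the 2 arrays of a number were 9.71, 10.83 and 10.38 for numbers 1 to 3. The group means were 10.18 ± 0.65 and 10.44 ± 0.51 (SD, n = 3), and the pairs differed by 0.52, 0.30 and -0.06. The difference of 0.25 did not pass (limma, adjusted p = 0.999, and adjusted p = 0.322 with the block). Without the block its sign depended on single arrays: it was -0.11 without control array 1 and -0.02 without Enigma RNAi array 2. In the blocked fit the difference stayed positive, at 0.12, 0.23 and 0.41 without pairs 1, 2 and 3. The 95% interval narrowed from -0.65 to 1.15 without the block to -0.04 to 0.54 with it.

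The genes differed in how far they varied over the 6 arrays, whatever the group. The SD of ImpL2 over all arrays was 0.54, at or above that of 95.1% of the tested probe sets, while that of Hr78 was 0.26, that of ftz-f1 0.25, that of usp 0.17 and that of Hr39 0.093. ImpL2 was lowest and ftz-f1 highest on both arrays numbered 1, so their extremes followed the replicate number in opposite directions. The genes whose mean-centred values lay nearest to those of ImpL2 over the 6 arrays were kay, which encodes the fly Fos protein, yellow-f, which encodes an enzyme of melanin synthesis, and bves, of the Popeye family of membrane proteins. Their root mean square distances were 0.12, 0.13 and 0.13 log2 units, among 5756 named genes. These values belong to 1 probe set of each gene: the other tested probe set of kay lay at a distance of 0.44, with a range of only 0.27 over the arrays, and that of bves at 0.21. The 3 control and 3 Enigma RNAi arrays are shared by all of these values, and arrays of 1 number are alike across many probe sets.

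The profiles of the undetected probe sets of EcR and Hr4 lay near the median profile of undetected probe sets in general. For 45.7% of the probe sets, 6386 in number, no array exceeded 4, and the median of these per array ran from 2.88 in control array 1 to 3.07 in Enigma RNAi array 2. The profile of this median lay within a root mean square distance of 0.030 of the first EcR probe set, of 0.026 of the second, and of 0.013 and 0.014 of the Hr4 probe sets. The third br probe set, also undetected, lay further from it, at a distance of 0.045. For the detected genes the same distance ran from 0.099 for the second br probe set to 0.43 for ImpL2. This distance grows with a probe set's own spread, so it cannot tell undetected from detected probe sets. Quantile normalization narrowed the range of the first EcR probe set over the arrays from 0.23 to 0.080 and that of the first Hr4 probe set from 0.20 to 0.057. Of the 12 probe sets, only ImpL2 and Hr39 widened, from 1.53 to 1.61 and from 0.24 to 0.43. By the same measure of distance, the tested genes nearest to EcR were Kebab, CG14618 and CG6951, at 0.0083, 0.014 and 0.018, each with a range of at most 0.23 over the arrays. All of these were detected, and they lay nearer to the first EcR probe set than the median of undetected probe sets did. They were picked as the nearest of 5757 tested genes, whereas that median is 1 fixed profile. Undetected probe sets were not searched, so nothing is concluded from this order.

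**Figure D3:**
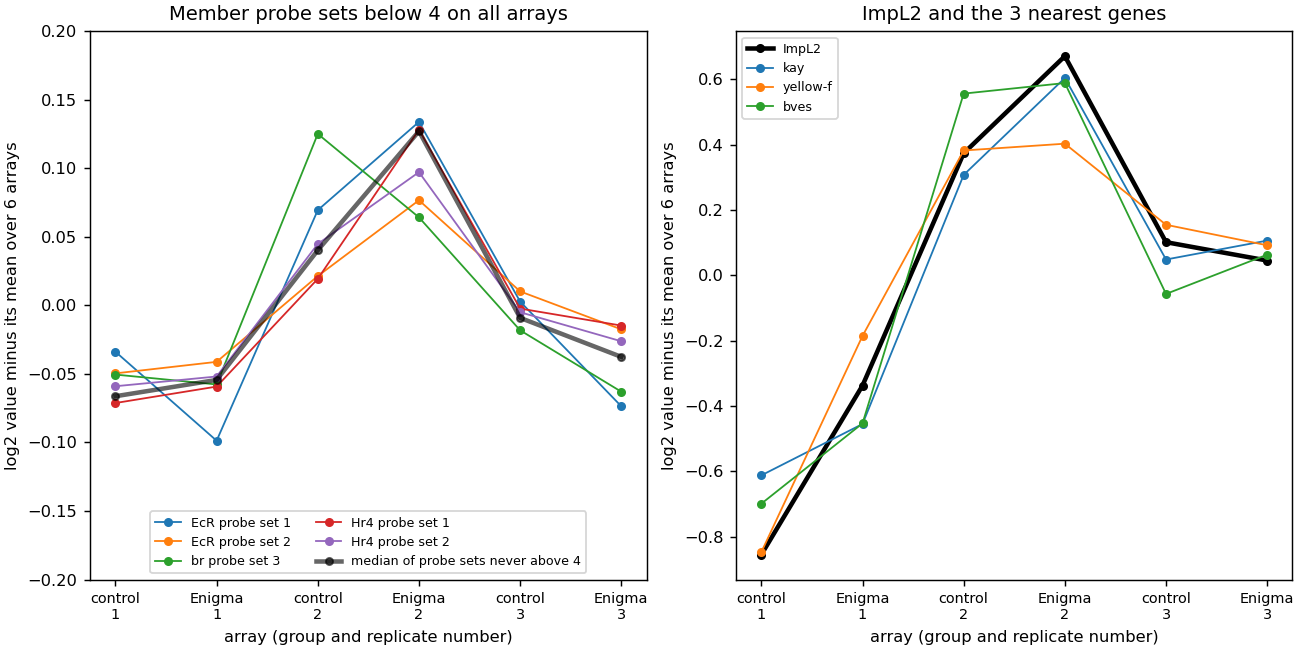
Log2 values minus their mean over the 6 arrays, with the arrays ordered by replicate number. On the left, the 5 probe sets of EcR, br and Hr4 that were below 4 on all arrays are drawn with the median of all probe sets never above 4 (thick line). The third br probe set is highest on control array 2 and the median on Enigma RNAi array 2. On the right, ImpL2 (thick line) is drawn with the nearest probe sets of kay, yellow-f and bves, all lowest on control array 1.

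Further genes of the pathway came from 4 lists with 59 distinct genes that have a current symbol, of which 50 had a probe set and 24 were tested. Of the 24, 0 passed without the block and 0 with it, where the shares of all tested probe sets were 0% and 0.631%. At an unadjusted p under 0.05 there were 1 of 24 without the block and 5 of 24 with it, close to the shares of 4.26% and 19.3% of all tested. Their median difference was -0.05, against -0.03 for all tested probe sets, and 5 were higher and 4 lower in all 3 pairs, where the shares of all tested probe sets were 15% and 25.2%.

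Of the remaining nuclear receptors, 4 of 14 were tested, and 9 were below 4 on all arrays, among them ERR, svp and tll. The mean of Hnf4, which in the fly larva drives the use of stored fat, differed by -0.14 ± 0.26 (SE), and that of Eip78C, an early-late ecdysone-inducible receptor, by 0.06 ± 0.19 (SE). Both had pairs in each direction, and neither passed.

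Cofactors and chaperones of the receptor were mostly detected, with 10 of 12 tested, and taiman (tai), the steroid receptor coactivator, was below 4 on all arrays. Of the 10, 9 had a lower mean after Enigma RNAi, against 58.3% of all tested probe sets, with a median difference of -0.17 against -0.03, and 0 passed. That background median depended on level and scaling: it was -0.06 at a mean log2 of at least 6 and -0.006 after quantile normalization. Of the other tested probe sets of these genes, that of brm differed by 0.09, and those of bon, rig and Smr by -0.32, -0.08 and -0.42. Smr, the corepressor SMRTER that EcR recruits without hormone, was at 7.89, 7.98 and 7.49 in control arrays 1 to 3 and at 7.66, 7.41 and 7.15 in the Enigma RNAi arrays. It was lower in 3 of 3 pairs, though its groups overlapped through control array 3. Its difference was -0.38 ± 0.19 (SE; limma, adjusted p = 0.999, and adjusted p = 0.113 with the block), and its other probe set differed by -0.42. Without Enigma RNAi array 3 the difference of Smr was -0.25. Utx, a histone demethylase that works with the receptor, differed by -0.38 ± 0.34 (SE) and was also lower in 3 of 3 pairs, without passing. With the replicate block the SE of Utx was 0.12 (limma, adjusted p = 0.155). Without the block the size of the Utx difference rested on single arrays, from -0.16 without Enigma RNAi array 1 to -0.70 without control array 1. In the blocked fit it was -0.48, -0.22 and -0.44 without pairs 1, 2 and 3. Hsc70-4, a chaperone, was the one with a higher mean, at 0.13.

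The listed enzymes that make the hormone and had a probe set were below or at the edge of detection. Of these, spo, dib, sad, shd and sro lay below 4 on all arrays, and so did Cyp18a1, which inactivates the hormone. No probe set was matched for the enzymes nvd, spok and phm. The importer Oatp74D, through which ecdysone enters cells, was detected, at 6.06, 5.30 and 5.26 in control arrays 1 to 3 and 5.71, 5.53 and 5.45 in the Enigma RNAi arrays, and differed by 0.02 ± 0.23 (SE). DopEcR, a membrane receptor for dopamine and ecdysone, differed by 0.31 ± 0.26 (SE), and mld, a zinc finger protein that promotes ecdysone synthesis, by 0.25 ± 0.17 (SE). Both were higher in 3 of 3 pairs and overlapped between the groups, and neither passed. With the replicate block the SE was 0.12 for DopEcR (limma, adjusted p = 0.215) and 0.11 for mld (adjusted p = 0.25). Without the block the difference of DopEcR was 0.06 without Enigma RNAi array 3 and 0.55 without Enigma RNAi array 1. That of mld was 0.095 without Enigma RNAi array 2 and 0.39 without Enigma RNAi array 1. In the blocked fit without pairs 1, 2 and 3, DopEcR was at 0.45, 0.29 and 0.19 and mld at 0.32, 0.14 and 0.29.

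Among other ecdysone-inducible genes, 8 of 17 were tested and 0 passed. The gene vri, a bZIP repressor of the circadian clock whose transcription ecdysone also raises, was the one of these 8 whose groups did not overlap. It was at 4.78, 4.93 and 5.01 in control arrays 1 to 3 and at 5.42, 5.32 and 5.32 in the Enigma RNAi arrays. All Enigma RNAi values lay above all control values, as deposited and also after quantile normalization and cyclic loess. Such a gap with the higher values after Enigma RNAi was found for 2.81% of all tested probe sets in the deposited values. A gap in the other direction, which would also have counted as no overlap, was found for a further 6.16%. Its difference was 0.45 ± 0.11 (SE), with a 95% interval of 0.19 to 0.71, and it did not pass over all probe sets (limma, adjusted p = 0.999, and adjusted p = 0.0802 with the block). MsrA, a methionine sulfoxide reductase also known as an ecdysone-inducible polypeptide, differed by -0.20 ± 0.21 (SE), with pairs in both directions. Eip93F, E23, ImpE1, ImpE2 and Blimp-1 were below 4 on all arrays.

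**Figure D4:**
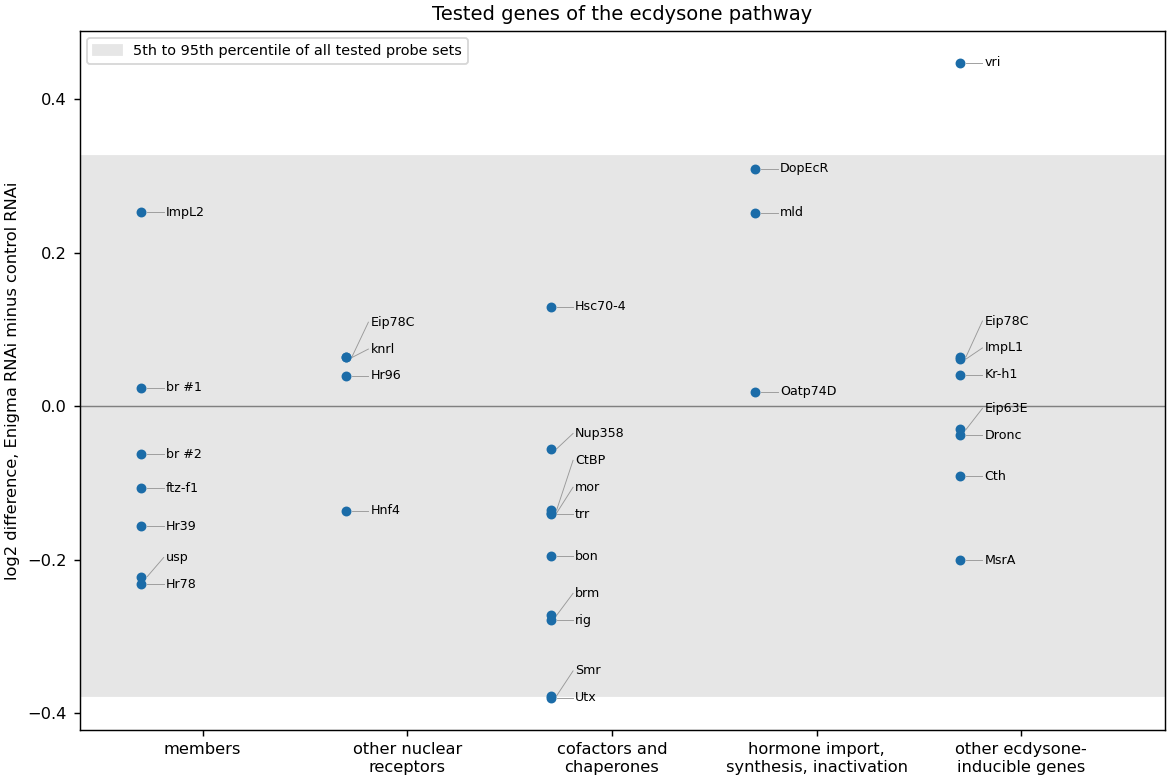
Log2 difference, Enigma RNAi minus control RNAi, of each tested probe set of the genes described (members) and of the tested genes of the 4 further lists. The grey band runs from the 5th to the 95th percentile of all tested probe sets, -0.38 to 0.33, and vri, at 0.45, lies above it, with Smr and Utx at its lower edge.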

How the data were processed

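The members and lists were chosen with earlier results of these data known. The deposited log2 values were made by the authors with GCRMA, per the submitters' processing notes, which name no version. GCRMA corrects background, normalizes between arrays and summarises probe sets. The log2 scale was taken from the method and the values. The table held 14010 probe sets, of which 44 control probe sets were left out and 6975 tested (log2 above 4 on at least 3 of 6 arrays). Names came from GEO's platform annotation, 12444 probe sets having 1 gene, 327 several and 1239 none here. Of the 12444, 12394 matched RefSeq Release 6 by Entrez number, with 0 symbols changed.

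Groups were compared in R 4.3.3 with limma 3.58.1 (lmFit, then eBayes; two-sided), with Benjamini-Hochberg adjustment over all tested probe sets and without a block, after the fit was tested on simulated data. The replicate numbers paired the arrays: after subtracting group means, arrays of the same number correlated with r of 0.80, 0.64 and 0.65 across probe sets. Of several probe sets of a list gene, the one with the highest mean among those tested was used. Named were all members, Enigma, of each list the genes past the threshold or else the 2 largest differences, and the 3 genes nearest to EcR and to ImpL2; other genes were named after their values were seen. Other filters, normalizations, blocks and left-out arrays were tried.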

Additional observations from a re-analysis of the deposited data

How the results depend on the processing

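No gene described passed under any of the alternatives run, and the differences of usp, Hr39 and Hr78 stayed below 0 in all of them, at -0.32 to -0.15, -0.18 to -0.12 and -0.36 to -0.04. The count over all probe sets was 0 without the block, 44 with the replicate block and 3 with a random block, and leaving out replicate pairs 1, 2 and 3 in the blocked fit gave 586, 2 and 8. Those fits have few residual degrees of freedom. Beyond this count and Enigma, the replicate block changed no call. Among the other pathway genes the count with the block was 0 to 1 when a pair was left out, the 1 being Utx without replicate 1. Signs turned for small differences: the first br probe set was between -0.10 and 0.11 when 1 array was left out and, with the replicate block, -0.014 without replicate 1 and -0.0081 without replicate 2. Leaving out 1 array gave -0.14 to 0.051 for the second br probe set, -0.24 to 0.045 for ftz-f1, -0.11 to 0.50 for ImpL2, -0.39 to 0.072 for Hnf4, -0.10 to 0.18 for Eip78C and -0.40 to 0.0046 for MsrA. The sign turned without control array 1 for the first br probe set, ftz-f1, ImpL2 and MsrA, without Enigma RNAi array 2 for the first br probe set and ImpL2, without control array 2 for the second br probe set, without Enigma RNAi array 3 for ftz-f1, and without control array 3 or Enigma RNAi array 1 for Hnf4 and Eip78C. The causes were not tested. In the blocked fit with a whole pair left out, the sign held for ftz-f1, ImpL2, Hnf4, Eip78C, MsrA and the second br probe set. Without pairs 1, 2 and 3 the differences were -0.11, -0.015 and -0.065 for the second br probe set. They were -0.092, -0.20 and -0.032 for ftz-f1, and -0.082, -0.072 and -0.26 for Hnf4. For Eip78C they were 0.025, 0.15 and 0.016, and for MsrA -0.041, -0.17 and -0.39. Setting array medians equal, an alternative chosen after seeing the data, turned none of these signs. A mean log2 of at least 6 left Hr78 and ImpL2 as the tested genes described. Signals below or near 4 limit what can be said of EcR, Hr4, br and Hr39.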
